A study of Mus musculus with 21 samples.

Results

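The libraries described here are the 6 of 21 in the series that were made from macrophages of Cx3cr1-Cre Gata3 fl/fl mice: 3 after IL-33 and 3 with no cytokine. They were chosen by their labels alone, and all 14473 genes that passed an expression filter, of 47069 counted, are the features compared. Cx3cr1-Cre Gata3 fl/fl mice carry a Cre recombinase driven by Cx3cr1, the fractalkine receptor gene of monocytes and macrophages, together with loxP-flanked (floxed) Gata3 alleles, and the cells are called floxed below. Macrophage precursors came from the bone marrow of C57BL/6 mice and became macrophages over 5 days of culture in M-CSF-conditioned medium, M-CSF being the growth factor that sustains macrophages, so every group saw M-CSF. IL-33 was then given for 36 h. The comparison asks how IL-33 changes the transcriptome of macrophages in which Gata3 is targeted. The other groups, 3 libraries each, were wild-type cells without cytokine, after IL-33 or after IL-4, and ST2-/- cells (which lack the IL-33 receptor gene) with no cytokine or IL-33; only the 6 wild-type libraries with no cytokine or IL-33 are set beside the floxed ones. No group had Cx3cr1-Cre without floxed Gata3, so effects of Cre, of the altered Gata3 and of the strain cannot be told apart. The labels do not say whether replicates came from separate mice, so p-values measure the spread between libraries, which may be technical.

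As background, IL-33 is an alarmin of the IL-1 family that is released by damaged barrier and stromal cells. It binds ST2, encoded by Il1rl1, which pairs with the accessory chain encoded by Il1rap and signals through MyD88 and IRAK kinases to NF-kB and MAP kinases. In macrophages IL-33 is known to amplify alternative activation, the state marked by arginase 1, chitinase-like proteins and C-type lectins. GATA3 is a zinc-finger transcription factor best known for specifying type 2 helper T cells and group 2 innate lymphoid cells.

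The floxed libraries held 40082441 to 48743646 counts with no cytokine and 33792047 to 37946103 with IL-33, within the range of 32626469 to 48743646 over all 21. Replicates of the floxed groups correlated with each other at 0.9866 or more across genes, and at most at 0.9723 with libraries of the other floxed group. Levels are given in CPM (counts scaled to the same library total), scaled with TMM factors. Macrophage markers were at high levels in all 6 libraries: the M-CSF receptor gene Csf1r averaged 3144 CPM with no cytokine and 3014 CPM with IL-33, Adgre1 (F4/80) 1564 and 1694 CPM, and Cd68 1465 and 1033 CPM. Xist, expressed from the inactive X chromosome of female cells, stood at 277 to 376 CPM in the floxed libraries, against a maximum of 0.0462 CPM in the 15 others. Ddx3y, a Y-linked gene, had at most 0.0286 CPM in the floxed libraries and 61.0 to 86.3 CPM in the others. The IL-33 response of floxed cells is a comparison within 1 sex, but any difference from wild-type cells also compares sexes, and genotype and sex cannot be told apart.

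The targeted gene could not serve as a check of the labels. Gata3 (chr2:9857078-9890034, GRCm38) had 11, 3 and 18 counts in the floxed libraries with no cytokine and 14, 9 and 14 counts with IL-33. These are 0.246 ± 0.187 and 0.350 ± 0.0681 CPM (SD, n = 3), and the groups overlap (log2 change 0.51 ± 0.64 (SE), adjusted p = 0.593 by edgeR's quasi-likelihood test). Wild-type cells were as low, at 0.147 ± 0.0339 CPM with no cytokine and 0.190 ± 0.0527 CPM with IL-33. A count over the whole gene also takes reads from exons that remain after recombination, so it does not show whether the floxed part was removed. Of the other GATA factors only Gata2, known from mast cells and progenitors, passed the filter, and it rose from 0.251 ± 0.221 to 1.24 ± 0.341 CPM (log2 change 2.25 ± 0.63, adjusted p = 0.00784). Zfpm1, encoding the GATA cofactor FOG1, fell from 8.18 ± 1.05 to 4.65 ± 0.769 CPM (adjusted p = 1.42e-05).

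Il1rl1 (chr1:40429570-40465415), the gene of the IL-33 receptor ST2, fell in floxed cells. Its levels were 13.7, 16.8 and 13.6 CPM in the 3 libraries with no cytokine and 7.67, 5.48 and 6.18 CPM in the 3 with IL-33. The groups do not overlap, and the log2 change was -1.18 ± 0.15 (SE), a 2.27-fold decrease (adjusted p = 1.80e-06). Below, ± is the SD of 3 libraries after a CPM level and the SE after a log2 value. Each SE is the size of the log2 value divided by the square root of the F statistic of edgeR's test. It therefore restates that test and is no separate measure of precision. Il33 itself had 1 count in the 3 control libraries and 2 in the 3 IL-33 libraries and was not tested. Cx3cr1, whose regulation drives the Cre, was at 63.02, 61.95 and 65.2 CPM with no cytokine and at 29.2, 22.1 and 20.4 CPM with IL-33. All 3 IL-33 libraries lay below all 3 controls, a 2.65-fold fall (log2 change -1.41 ± 0.11, adjusted p = 2.29e-09).

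In floxed macrophages IL-33 changed 4835 of the 14473 genes tested, 33.4% of them, at an adjusted p under 0.05. Of these, 2471 rose (17.1% of the genes tested) and 2364 fell (16.3%). A change of at least 2-fold was rarer and leaned upwards: 501 genes rose that far (3.46%) and 416 fell that far (2.87%). Without adjustment 6103 genes had a p under 0.05. The balance of rises and falls depends on scaling: 51.1% of the calls were rises with TMM factors and 40.1% with upper-quartile factors (2001 rises and 2985 falls), while the median gene moved from -0.01 to -0.06 on the log2 scale. Of the 4835 calls, 3283 (67.9%) were made in the same direction in all 6 fits that left out 1 floxed library.

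**Figure D1:**
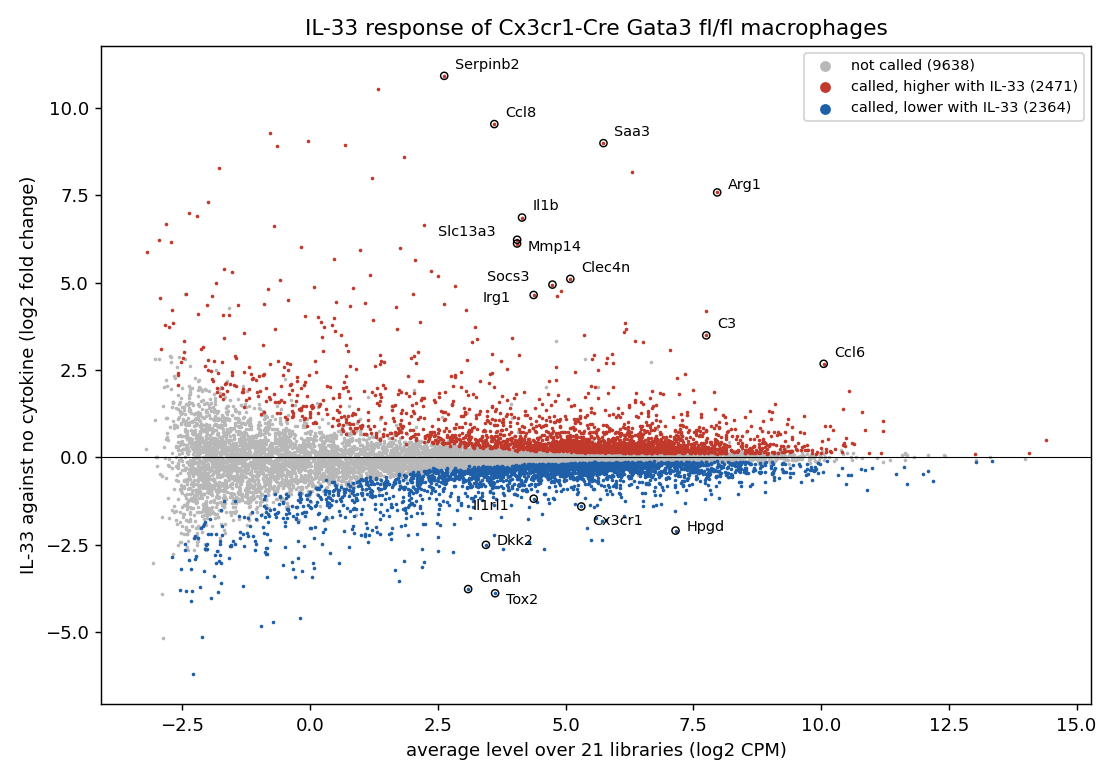
Log2 fold change of IL-33 against no cytokine in Cx3cr1-Cre Gata3 fl/fl cells (3 against 3 libraries) against the average level over all 21 libraries, for the 14473 genes tested. Red points are the 2471 genes called higher, blue points the 2364 called lower and grey points the 9638 not called at an adjusted p of 0.05; circled genes are named in the text. The largest rises, such as Serpinb2, Ccl8 and Saa3, lie further from 0 than the largest falls, Tox2 and Cmah.

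The largest rises among protein-coding genes of at least moderate level (average log2 CPM of at least 2 over all libraries, no overlap between groups) were Serpinb2, Ccl8, Saa3, Rnase2a, Arg1, Il1b, Rasgrp1, Slc13a3, Mmp14, Ccl12, Cish, H2-M2, Clec4n, Socs3 and Socs2. Several were close to undetected without cytokine. Serpinb2 (chr1:107511423-107535478), encoding an inhibitor of plasminogen activators, had 1 count in the 3 control libraries together and stood at 27.4, 13.4 and 21.4 CPM with IL-33. The ratio of summed levels was 2768, with a 95% counting interval of 496 to 109383 that covers counting error only. Ccl8 (chr11:82115185-82116799), a monocyte-attracting chemokine, had 3 counts in the controls and stood at 21.6, 14.7 and 21.5 CPM with IL-33 (ratio 851, interval 291 to 4129). These ratios show a switch from near absence to a moderate level, with a size that the few control counts leave wide.

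Saa3 (chr7:46711998-46715700), an acute-phase serum amyloid made by macrophages, was at 0.142, 0.143 and 0.320 CPM in the controls and at 104, 87.2 and 115 CPM with IL-33. The groups are far apart, and the log2 change was 8.99 ± 0.93 (adjusted p = 9.10e-08). Il1b (chr2:129364570-129371139), encoding the inflammatory cytokine IL-1beta, went from 0.284, 0.548 and 0.468 to 60.3, 41.5 and 47.9 CPM, a 116-fold rise (adjusted p = 4.45e-10). Rasgrp1, a Ras activator, rose 99.9-fold to 15.5 ± 0.709 CPM. Slc13a3, a dicarboxylate transporter that can carry itaconate, rose 74.96-fold to 38.3 ± 14.9 CPM, and the second IL-33 library (30.2, 55.5 and 29.1 CPM in library order) was the highest. Rnase2a, an eosinophil-type ribonuclease also made by macrophages, had no count in the 3 controls and 94 counts with IL-33, at least 13.1-fold higher against a floor of 3 counts per library. Its average level passed the rule for naming because it was set over all 21 libraries.

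Genes of cytokine feedback stood among these rises. SOCS proteins and CIS, encoded by Socs3, Socs2 and Cish, are induced by JAK-STAT signalling and damp it. Socs3 was at 2.33, 2.05 and 3.06 CPM with no cytokine and at 71.8, 80.8 and 75.97 CPM with IL-33, a 30.8-fold rise (adjusted p = 1.07e-09). Socs2 rose 29.7-fold to 15.7 ± 1.29 CPM, and Cish 40.6-fold to 7.23 ± 1.12 CPM. Clec4n, encoding the fungal-sensing lectin Dectin-2, was at 4.29, 4.24 and 3.60 CPM in the controls and at 144, 126 and 149.9 CPM with IL-33. The 2 groups of 3 lie far apart, and the fold change was 34.5 (adjusted p = 1.71e-15). H2-M2, a nonclassical MHC class I gene, rose 36.8-fold, with 24.7, 24.6 and 25.3 CPM in the IL-33 libraries.

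**Figure D2:**
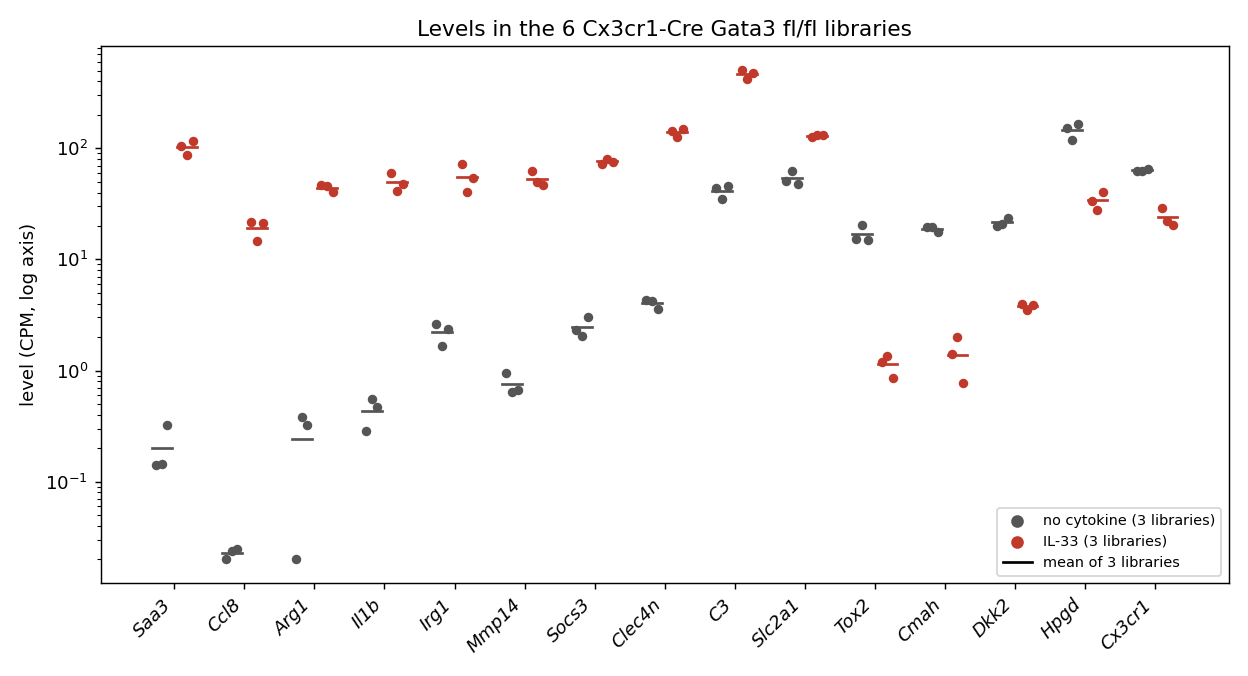
Levels (CPM, log axis) of 15 genes in the 6 Cx3cr1-Cre Gata3 fl/fl libraries, with 1 point per library and a line at the mean of each group; grey is no cytokine and red is IL-33. The red and grey points do not overlap for any gene drawn, which the naming rule required of the largest rises and falls. The 10 genes from Saa3 to Slc2a1 are higher with IL-33 and the 5 from Tox2 to Cx3cr1 are lower.

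The largest falls by the same rule included Tox2, Cmah, Cd300e, Sox4, Samd4, Shisa9, Slco2b1, Gpr34, Adgre4, Dkk2, Ets1, Hmga2, Angptl4 and Cdkn1c. They include regulators of growth and of transcription. Tox2 (chr2:163203125-163324170), an HMG-box factor, was at 15.3, 20.2 and 14.96 CPM in the controls and at 1.18, 1.36 and 0.858 CPM with IL-33, a 14.8-fold fall (adjusted p = 1.78e-12). Cmah, the enzyme that makes N-glycolylneuraminic acid, went from 19.6, 19.6 and 17.5 to 1.40, 1.998 and 0.772 CPM, a 13.6-fold fall. Dkk2 (chr3:132085292-132180304), a secreted modulator of Wnt signalling, went from 20.1, 20.9 and 23.5 to 3.93, 3.51 and 3.92 CPM, a 5.67-fold fall (adjusted p = 2.85e-11). The control and IL-33 libraries do not overlap for any of these 3 genes, which the rule for naming them required.

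Hmga2, a chromatin protein of proliferating and fetal cells, fell 5.19-fold to 9.50 ± 0.428 CPM, and the transcription factor Ets1 fell 5.37-fold to 5.44 ± 0.6003 CPM. Receptors were a further set: Cd300e, an activating receptor of monocytes, fell 8.88-fold, Gpr34, the lysophosphatidylserine receptor, 6.16-fold, and the adhesion receptor gene Adgre4 6.12-fold. Shisa9 fell 6.43-fold, Samd4 6.57-fold and the organic anion transporter gene Slco2b1 6.18-fold. Angptl4, an inhibitor of lipoprotein lipase, fell 4.87-fold to 1.44 ± 0.0411 CPM. Sox4 fell 7.93-fold and Cdkn1c 4.65-fold, but 54.6% and 30.6% of their exon bases overlap antisense genes, and without a stated strand setting the reads cannot be told apart.

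Promoter sequences are shown for 4 of these genes whose windows hold matches to motifs of factors known downstream of IL-33 or of GATA and interferon factors, so that the letters behind each match can be seen. RefSeq (GRCm38.p6) gave a window of the 250 bases before its own gene start for 12 of the 15 rises and 9 of the 15 falls. Motif distances are counted from that start. For Saa3 it lies inside the gene coordinates given above, so the window overlaps them. The lines below read 5′ to 3′ on the gene's strand, with the matches in capitals. Serpinb2 has 2 windows in the table, and the one that ends at its annotated start is shown.
Serpinb2, chr1:107511173-107511422, + strand: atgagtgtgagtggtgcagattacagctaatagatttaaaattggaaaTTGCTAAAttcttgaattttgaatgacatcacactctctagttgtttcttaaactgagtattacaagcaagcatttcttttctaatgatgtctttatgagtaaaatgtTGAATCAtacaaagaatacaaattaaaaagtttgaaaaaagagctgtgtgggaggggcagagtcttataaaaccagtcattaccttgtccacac
Saa3, chr7:46715677-46715926, - strand: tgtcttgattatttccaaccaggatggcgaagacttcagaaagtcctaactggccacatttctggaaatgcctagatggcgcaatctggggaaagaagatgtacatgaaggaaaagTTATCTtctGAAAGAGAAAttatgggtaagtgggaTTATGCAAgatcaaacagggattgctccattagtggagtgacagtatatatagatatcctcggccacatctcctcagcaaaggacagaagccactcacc
H2-M2, chr17:37483555-37483804, - strand: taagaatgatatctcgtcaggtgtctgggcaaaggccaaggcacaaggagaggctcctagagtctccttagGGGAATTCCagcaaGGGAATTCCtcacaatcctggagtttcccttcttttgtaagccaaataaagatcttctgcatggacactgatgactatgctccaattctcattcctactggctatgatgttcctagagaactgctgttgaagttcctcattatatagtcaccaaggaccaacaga
Dkk2, chr3:132085042-132085291, + strand: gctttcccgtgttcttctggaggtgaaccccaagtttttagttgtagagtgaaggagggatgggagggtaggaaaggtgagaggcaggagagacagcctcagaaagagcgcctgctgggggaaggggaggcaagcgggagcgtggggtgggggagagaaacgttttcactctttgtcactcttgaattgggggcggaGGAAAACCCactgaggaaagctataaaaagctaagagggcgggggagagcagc

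The motifs were searched on both strands. AP-1 was searched as TGANTCA, a loose pattern that leaves the central base open. It matched 94 bases before the start of Serpinb2, and 6.75% of all 32851 windows of that length in the table hold it. The match reads TGAATCA, whereas the usual AP-1 site has C or G at the centre. The C/EBP motif TTGCNNAA stood 202 bases before the start of Serpinb2 and 99 before that of Saa3, and 9.56% of windows hold it. Saa3 also had the GATA motif AGATAA, on the other strand, 134 bases before its start (9.99% of windows) and a core of the interferon-stimulated response element 125 bases before it (2.98%). H2-M2 held the NF-kB motif GGGNNTTCC in duplicate, 179 and 165 bases before its start, without overlap between the copies, and Dkk2, which fell, held it on the other strand 53 bases before its start (4.98% of windows). Of the 12 rises with a window, 1 held the NF-kB motif, 1 the loose AP-1 pattern and 1 the interferon-response core. The C/EBP motif stood in 3 of these rises and in 1 of the 9 falls with a window, Adgre4. The second GATA motif, TGATAA (7.94% of windows), stood in the windows of Rasgrp1, which rose, and Cmah, which fell; AGATAA also stood in that of Cd300e, which fell. No window of these genes held the STAT6 motif (5.85% of all windows). A match describes the letters of the window, not binding.

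Of 13 tested genes of IL-33 reception and signalling, 3 rose and 2 fell, counts near the shares of all genes tested (17.1% and 16.3%), with a median log2 change of -0.01. Beside Il1rl1, the kinase gene Irak2 fell 1.30-fold to 49.5 ± 3.86 CPM. The adaptor gene Myd88 rose 1.59-fold (63.4 ± 0.757 to 101 ± 5.90 CPM), as did Irak3, encoding the inhibitory kinase IRAK-M (1.67-fold, 37.1 ± 1.27 to 61.8 ± 6.09 CPM). The coreceptor gene Il1rap was at 12.04 ± 0.841 and 11.3 ± 1.64 CPM and did not pass the test (adjusted p = 0.525).

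NF-kB feedback genes rose in larger number: 15 of 22 rose and 2 fell, with a median log2 change of 0.46 against -0.01 over all genes tested. Nfkbia and Tnfaip3, which encode the inhibitors IkBalpha and A20, rose 1.49-fold and 1.70-fold. Bcl3, an atypical IkB protein, rose 3.05-fold (16.3 ± 1.09 to 49.7 ± 3.37 CPM), Sod2, the mitochondrial superoxide dismutase, 2.99-fold, and Traf1, an adaptor of TNF receptors, 2.12-fold. The subunit gene Nfkb1 did not pass the test (133 ± 1.91 and 128 ± 2.61 CPM, adjusted p = 0.531). Cd83, a maturation marker of antigen-presenting cells, went the other way, falling 2.62-fold from 143 ± 5.16 to 54.4 ± 2.72 CPM.

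Genes of alternative activation rose as a group in floxed cells: 18 of 27 rose and 3 fell, with a median log2 change of 1.52. Arg1 (chr10:24915221-24927484), encoding arginase 1, which turns arginine into ornithine, was at 0.0203, 0.382 and 0.320 CPM in the controls and at 47.2, 45.6 and 40.2 CPM with IL-33. The controls span more than an order of magnitude at a level near 0, the IL-33 libraries are close together, and the rise was 192-fold (log2 change 7.58 ± 0.31, adjusted p = 4.59e-14). Mgl2, encoding the galactose-binding lectin CD301b, went from 7.68, 6.82 and 8.55 to 152, 119 and 146 CPM, an 18.1-fold rise. Mrc1, the mannose receptor CD206, was already abundant at 528 ± 12.7 CPM and rose 2.27-fold to 1197 ± 122 CPM. Il4ra, encoding the receptor chain shared by IL-4 and IL-13, rose 3.49-fold to 295 ± 20.8 CPM.

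The chitinase-like gene Chil3 (Ym1) rose only 1.63-fold, from 15.7, 17.3 and 13.95 to 22.6, 27.5 and 26.6 CPM (adjusted p = 1.82e-05). Retnla (RELMalpha), a classic IL-4 target, stayed at trace levels: 4 counts in the 3 controls, 23 counts in the 3 IL-33 libraries, adjusted p = 0.0723. Without control replicate 3, which held all 4 of the control counts, it was called (adjusted p = 0.0308). The chemokine gene Ccl17 had no count in the controls and 178 counts with IL-33, at least 24.3-fold higher. The 3 members that fell were Clec7a (Dectin-1), Pparg, a lipid-sensing nuclear receptor, and Matk: 1.35-fold, 1.84-fold and 1.75-fold.

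Around arginine, 9 of 18 genes rose (50%, against 17.1% of all genes tested) and 3 fell (16.7%, near the 16.3% of all genes tested). The median log2 change was 0.30. Slc7a2, the cationic amino acid transporter CAT2, rose 7.62-fold (3.50, 4.58 and 3.18 CPM in the controls, 34.98, 24.3 and 26.3 CPM with IL-33). Ass1, which rebuilds arginine from citrulline, rose 7.81-fold to 32.8 ± 10.3 CPM, and Arg2, the mitochondrial arginase, 15.7-fold to 4.41 ± 0.648 CPM. Odc1, the first enzyme of polyamine synthesis, rose 1.41-fold. Nos2, which makes nitric oxide from the same substrate, had no count in the controls and 52 counts with IL-33, at least 7.23-fold higher but at only 0.497 ± 0.147 CPM.

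Cytokine and prostaglandin genes moved mainly upwards, with 15 of 22 rising and 2 falling. The median log2 change was 1.62, or 1.47 with the 3 members at 0 in the controls set to their lower bounds. Beside Il1b, Il1a rose 60.98-fold to 6.20 ± 1.53 CPM and Il1rn, the natural antagonist of the IL-1 receptor, rose 4.05-fold (28.6, 24.6 and 23.9 CPM to 125, 76.4 and 111 CPM). Tnf rose 2.14-fold (6.52, 9.25 and 6.73 CPM to 22.1, 12.5 and 13.4 CPM), and its IL-33 libraries all lay above the controls. Il6 rose 17.2-fold but reached only 0.560 ± 0.292 CPM. Csf3, encoding G-CSF, had no count in the controls and 40 counts with IL-33, most of them in 1 library (0.727, 0.0605 and 0.315 CPM).

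Il13, the type 2 cytokine, had no count in the 3 floxed controls and 160 counts with IL-33 (2.13, 1.15 and 1.23 CPM), at least 21.9-fold higher. Markers of the cells best known for making it were measured beside it. Of 15 markers of T cells and group 2 innate lymphoid cells, 9 passed the filter. Their summed level was 330.0 to 341 CPM with no cytokine and 268 to 303 CPM with IL-33, most of it Il7r. Klrg1 and Areg had no count in the 6 libraries. Of the 9 tested, 3 rose (Il13, Il5 and Il2ra) and 3 fell, 33.3% each, against 17.1% and 16.3% of all genes tested. Over the 8 of 12 markers of mast cells and basophils that were tested, the summed level was 11.3 to 16.4 CPM and 12.7 to 16.8 CPM. Mcpt4, Tpsb2 and Cma1 had no count. Of the 8 tested, 4 rose (50%: Ms4a2, Gata2, Mcpt8 and Hdc) and 1 fell (12.5%: Kit, 2.03-fold). Of these, Kit was not called without IL-33 replicate 2 (adjusted p = 0.0515), and Mcpt8 (adjusted p of 0.0524 to 0.0788) and Il7r (0.0502 to 0.112) were not called in 3 of the 6 fits that left out 1 floxed library. The part of such cells in the Il13 counts was not tested.

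Prostaglandin genes changed at both ends of the pathway. Ptgs1 and Ptgs2, the cyclooxygenases that start the synthesis, rose: Ptgs1 from 23.1, 25.8 and 24.1 to 55.04, 59.8 and 52.9 CPM (2.30-fold, adjusted p = 4.89e-11) and Ptgs2 15.4-fold to 6.32 ± 1.71 CPM. Ptges, the terminal synthase of prostaglandin E2, rose 8.19-fold to 2.70 ± 0.920 CPM. Hpgd (chr8:56294585-56321043), which degrades prostaglandins, was at 153, 118 and 165 CPM in the controls and at 33.4, 28.1 and 40.6 CPM with IL-33, a 4.27-fold fall (adjusted p = 3.49e-08).

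Chemokine genes had the highest median of the lists with 10 or more tested genes: 17 of 21 rose, none fell at an adjusted p under 0.05, and the median log2 change was 2.06. The ligands of CCR2 rose from low levels, Ccl2 from 9.87, 16.5 and 10.01 to 158, 114 and 161 CPM (11.9-fold), Ccl7 27.2-fold to 59.4 ± 11.9 CPM and Ccl12 50.1-fold to 6.58 ± 1.58 CPM. Neutrophil-attracting ligands of CXCR2 followed, with Cxcl1 rising 9.36-fold and Cxcl2 6.92-fold; Cxcl3 had 4 counts in the controls and 908 with IL-33. Members already well expressed without cytokine rose as well: Ccl6, at 425, 483 and 419 CPM in the controls and 2604, 2818 and 3068 CPM with IL-33 (6.40-fold), and Ccl9, 2.45-fold higher at 2507 ± 21.5 CPM. In both genes every IL-33 library lay above every control.

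Among receptors of chemokines, 5 of 10 rose (50%) and 4 fell (40%), against 17.1% and 16.3% of all genes tested. Ccr1, which binds several of the ligands above, rose 7.75-fold (21.3 ± 5.07 to 164 ± 9.30 CPM). Cxcr3 fell 3.76-fold (7.05 ± 0.555 to 1.88 ± 0.368 CPM), beside Cx3cr1. Cxcr2 rose 2.71-fold but stayed at 1.36 ± 0.199 CPM. It was not called without IL-33 replicate 3 (adjusted p = 0.0580) or control replicate 3 (0.0797).

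Acute-phase and iron genes rose in 10 of 13 members (76.9%, against 17.1% of all genes tested) and fell in 2 (15.4%, near 16.3%). Their median log2 change was 1.03. C3, the central complement component, was at 43.8, 34.98 and 45.5 CPM in the controls and 503, 424 and 472 CPM with IL-33, an 11.2-fold rise (adjusted p = 3.54e-11). Hp, encoding haptoglobin, which binds free haemoglobin, rose 18.7-fold to 25.8 ± 4.74 CPM, and the siderophore-binding Lcn2 2.51-fold to 9.47 ± 0.637 CPM. Tfrc, the transferrin receptor, rose 2.04-fold (23.6, 26.5 and 24.7 to 49.2, 53.1 and 49.9 CPM), while Slc40a1, the iron exporter ferroportin, fell 2.62-fold (113 ± 2.90 to 43.4 ± 6.13 CPM). The other fall, of the ferritin heavy chain gene Fth1, was small (log2 change -0.10 ± 0.04, adjusted p = 0.0307) and was not called in 5 of the 6 fits that left out 1 floxed library (adjusted p of 0.0550 to 0.204).

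Matrix proteases rose with the plasminogen system: 12 of 19 genes rose and 1 fell, with a median log2 change of 1.17. Mmp14, a membrane-bound metalloprotease, was at 0.952, 0.644 and 0.666 CPM in the controls and 62.98, 49.9 and 47.02 CPM with IL-33, a 69.6-fold rise (adjusted p = 2.28e-10). Mmp8 and Mmp9, collagenase and gelatinase, rose 12.7-fold to 238 ± 20.5 CPM and 11.3-fold to 60.5 ± 13.4 CPM. The macrophage elastase gene Mmp12 rose 3.76-fold from an already high 579 ± 117 CPM. Plaur, the receptor of urokinase, rose 2.25-fold to 130.0 ± 8.91 CPM. The fall was that of the metalloprotease gene Adam19 (log2 change -0.65 ± 0.25, adjusted p = 0.0459), which was not called with DESeq2 (0.0811) or in 4 of the 6 fits that left out 1 floxed library (0.0597 to 0.232).

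Growth and repair factors moved unevenly, with 7 of 16 rising (43.8%, against 17.1% of all genes tested) and 2 falling (12.5%, against 16.3%). Their median log2 change was 0.38. Pdgfc rose 9.95-fold (2.35, 2.60 and 3.18 to 24.3, 27.00 and 29.4 CPM), the matrix protein gene Fn1 10.2-fold to 93.8 ± 27.7 CPM and Thbs1 (thrombospondin 1) 2.67-fold to 92.98 ± 4.32 CPM. Igf1 rose 2.13-fold with little spread (377, 369.8 and 372 to 814, 799 and 765 CPM). Pgf, a ligand of VEGF receptor 1, rose 33.6-fold to 2.12 ± 0.264 CPM. Vegfa and Tgfb1 did not pass the test: Vegfa averaged 125 ± 14.3 and 130.4 ± 5.02 CPM (adjusted p = 0.685), Tgfb1 369.6 ± 23.4 and 387 ± 13.96 CPM (adjusted p = 0.293).

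Of 27 interferon-stimulated genes 3 rose and 2 fell, shares below the background of 17.1% and 16.3%, with a median log2 change of -0.09. Ifit3 fell 2.24-fold, from 62.1, 28.7 and 48.3 to 26.7, 15.3 and 20.2 CPM, and its near copy Ifit3b fell 3.10-fold; reads of these 2 paralogs may be split between them by the counting. Stat2, a transducer of type I interferon signals, rose 1.32-fold and Zbp1, a nucleic acid sensor, 1.55-fold. Ifit1 was at 32.5 ± 12.96 and 25.9 ± 6.85 CPM (adjusted p = 0.427), and its libraries varied widely within a group. The counts of this list depend on the setting. Without the expression filter 5 members rose and 11 fell, with upper-quartile factors 4 fell, with limma-voom 1 fell, and without floxed control replicate 2 there were 5 falls and 1 rise. Single libraries decide 3 of the calls named here: Ifit3 was not called without floxed control replicate 1 (adjusted p = 0.0550), and Stat2 and Zbp1 were not called in 4 of the 6 fits that left out 1 floxed library (adjusted p of 0.0640 to 0.176 and 0.0538 to 0.159).

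Glycolysis genes rose nearly throughout: 17 of 21 rose and 2 fell, with a median log2 change of 0.75. Slc2a1, the glucose transporter GLUT1, was at 50.3, 63.02 and 48.00 CPM in the controls and 127, 131 and 131 CPM with IL-33, a 2.41-fold rise (adjusted p = 4.21e-06). Hexokinase 2 (Hk2) rose 1.72-fold, Pfkfb3, which makes the activator of phosphofructokinase, 2.21-fold, lactate dehydrogenase (Ldha) 1.88-fold and the lactate exporter Slc16a3 2.24-fold. The falls were the muscle and neuronal isoforms Pfkm (1.15-fold) and Eno2 (1.80-fold). Pfkm was not called in 5 of the 6 fits that left out 1 floxed library (adjusted p of 0.0518 to 0.183).

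**Figure D3:**
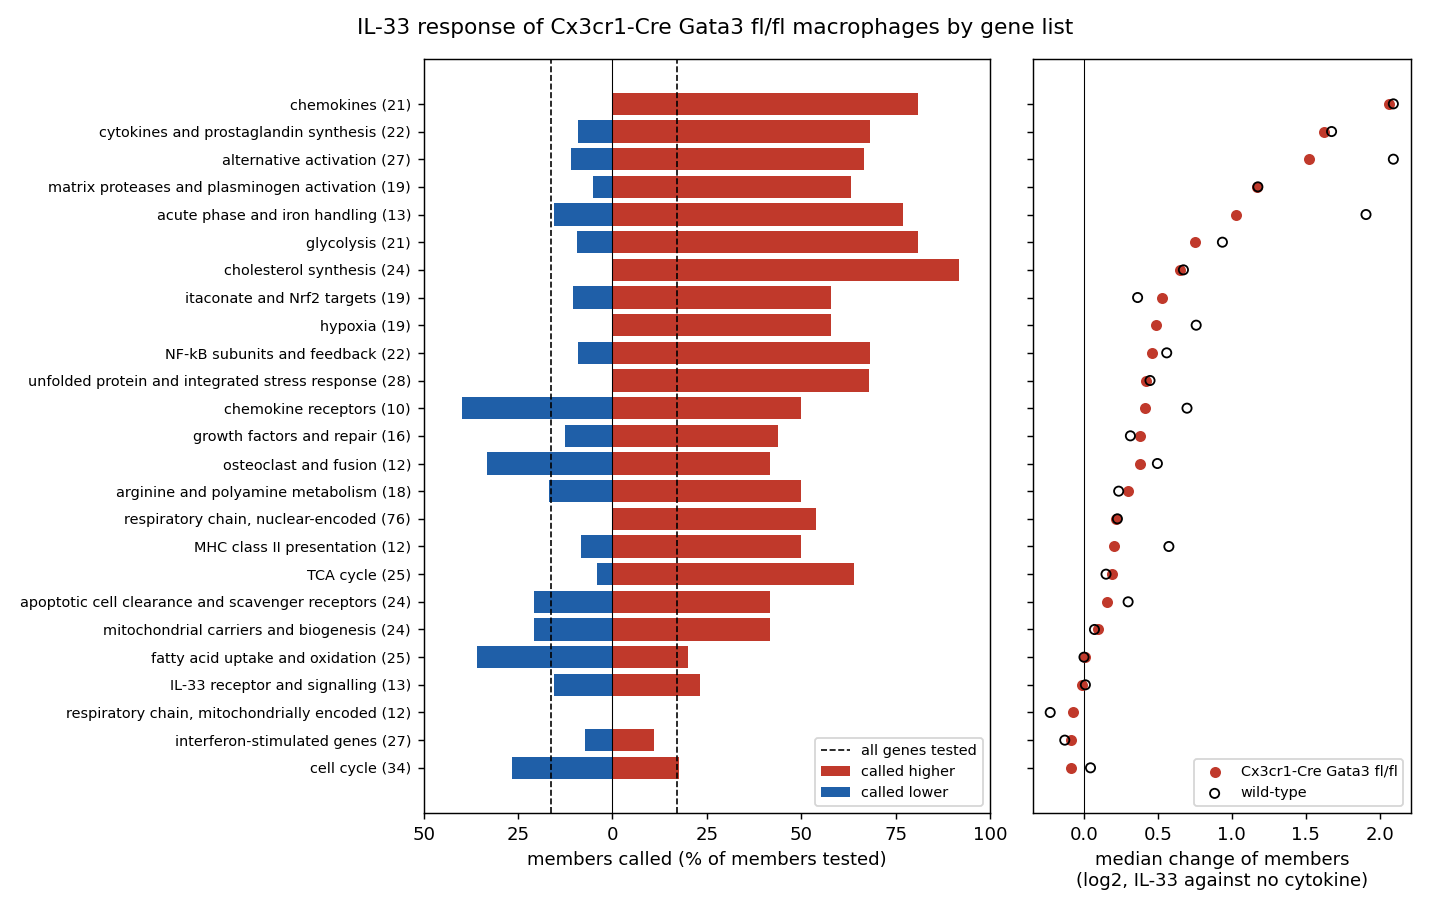
Left, share of the tested members of 25 gene lists (number tested in brackets) that were called higher (red) or lower (blue) after IL-33 in Cx3cr1-Cre Gata3 fl/fl cells; dashed lines mark the shares over all genes tested, 17.1% higher and 16.3% lower. Right, median log2 change of the members in floxed (filled) and wild-type (open) cells. Chemokine, cytokine and alternative-activation lists have the highest medians, and the largest share called higher is that of cholesterol synthesis, 22 of 24.

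Genes of mitochondrial metabolism were described in 4 lists. Of 25 TCA cycle genes 16 rose and 1 fell (median log2 change 0.19); the largest were Idh1, the cytosolic isocitrate dehydrogenase (1.56-fold), and Pdk1, which inhibits pyruvate dehydrogenase (1.53-fold). Citrate synthase (Cs) rose 1.27-fold. Of 76 nuclear-encoded genes of the respiratory chain 41 rose and none fell, with a median of 0.22; Cycs (cytochrome c) rose 1.49-fold and Cox5a 1.46-fold. Of 12 genes encoded in the mitochondrial genome none passed the test (median -0.07). Without the expression filter 1 rose and 3 fell, and in a fit of the compared libraries alone 1 rose. The share of such counts was 0.187 to 0.246% in the controls and 0.165 to 0.246% with IL-33. Of 24 genes of mitochondrial carriers and biogenesis 10 rose (41.7%, against 17.1% of all genes tested) and 5 fell (20.8%, near the 16.3% of all genes tested). Ucp2, an inner-membrane carrier, fell 1.14-fold (991, 1092 and 1032 to 911, 938 and 887 CPM, adjusted p = 8.99e-04). Ppargc1b, a coactivator of mitochondrial biogenesis, rose 2.99-fold to 6.68 ± 0.187 CPM, and Slc25a5, the ADP/ATP carrier, 1.75-fold to 431 ± 17.03 CPM.

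Cholesterol synthesis was the most uniform list. Of 24 tested genes 22 rose and none fell, with a median log2 change of 0.65. Mvd, an enzyme of the mevalonate pathway, was at 39.5, 33.1 and 36.5 CPM in the controls and 80.8, 82.98 and 91.6 CPM with IL-33, a 2.34-fold rise (adjusted p = 4.32e-13). Squalene epoxidase (Sqle) rose 1.93-fold and Hmgcs1 1.49-fold. Of 25 genes of fatty acid uptake and oxidation 5 rose (20%, near the 17.1% of all genes tested) and 9 fell (36%, against 16.3%). Their median was 0.01 with TMM and -0.04 with upper-quartile factors, so it has no direction. Fabp5, a fatty acid chaperone, rose 1.66-fold (518 ± 10.6 to 861 ± 58.1 CPM), Acsl1, which activates fatty acids, 1.62-fold, and Cpt1a, the gate of mitochondrial oxidation, fell 1.09-fold. Cpt1a was not called in 4 of the 6 leave-one-out fits (adjusted p of 0.0507 to 0.113).

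Itaconate and NRF2 target genes rose in 11 of 19 members and fell in 2 (median log2 change 0.53). Irg1 (chr14:103046977-103056573; now Acod1), the enzyme that makes itaconate from a TCA cycle intermediate, was at 2.61, 1.65 and 2.34 CPM in the controls and at 71.7, 40.8 and 54.00 CPM with IL-33. The groups are well apart, and the rise was 25.1-fold (adjusted p = 4.14e-11). Gclm, a subunit of the glutathione-synthesis enzyme, rose 2.83-fold, Slc7a11, which imports cystine, 2.26-fold and Nqo1 2.19-fold. Hypoxia genes rose in 11 of 19 members and none fell (median 0.49); Hif1a rose 1.36-fold, Egln3, an oxygen-sensing hydroxylase, 2.22-fold and Ero1l, an oxidase of protein folding, 2.32-fold. Of 28 genes of the unfolded protein and integrated stress responses 19 rose and none fell (median 0.42), among them the chaperone Hspa5 (1.26-fold), Atf4 (1.34-fold), Mthfd2 (2.34-fold) and Atf5 (2.29-fold), while Ddit3 (CHOP) did not pass the test (24.2 ± 1.78 and 20.3 ± 3.30 CPM, adjusted p = 0.205). Ddit3 was called lower without the expression filter (log2 change -0.26, adjusted p = 0.0268).

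Cell cycle genes moved in both directions: of 34 tested, 9 fell and 6 rose, against 16.3% and 17.1% of all genes tested (median log2 change -0.09). Ccnd1, the cyclin that answers growth factors, fell 3.43-fold (62.5 ± 14.02 to 18.2 ± 2.52 CPM), the mitotic genes Ccnb2 and Cdc20 1.73-fold and 1.60-fold, and Mki67 1.26-fold. Ccne1, the cyclin of S-phase entry, rose 2.45-fold (3.88 ± 1.40 to 9.47 ± 0.992 CPM). Genes of DNA replication such as the Mcm family are in the same list, and Top2a did not pass the test (adjusted p = 0.151). Mki67 was not called without floxed control replicate 2 (adjusted p = 0.190) or without IL-33 replicate 2 or 3 (0.145 and 0.105), or with DESeq2 (0.0542).

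Of 12 genes of MHC class II presentation 6 rose (50%, against 17.1% of all genes tested) and 1 fell (8.33%, against 16.3%). Their median log2 change was 0.20. The invariant chain gene Cd74 rose 1.30-fold (1503 ± 109.9 to 1954 ± 124 CPM), the thiol reductase Ifi30 1.77-fold and the peptide-exchange subunit gene H2-DMa 1.38-fold. The peptide-presenting chain gene H2-Ab1 did not pass the test (446 ± 26.01 and 479 ± 32.99 CPM, adjusted p = 0.514). Of 24 clearance and scavenger receptors 10 rose (41.7%, against 17.1% of all genes tested) and 5 fell (20.8%, near the 16.3% of all genes tested). Msr1, scavenger receptor A, rose 3.82-fold (108 ± 8.74 to 414 ± 9.90 CPM), and Marco, a second class A receptor, went from no count in the 3 controls to 3.55, 6.27 and 4.29 CPM, at least 68.4-fold higher. Mertk, a receptor for apoptotic cells, rose 1.24-fold, while its relative Axl fell 2.09-fold (230.4 ± 17.9 to 110.1 ± 16.04 CPM) and the haemoglobin receptor gene Cd163 fell 2.30-fold. Osteoclast and fusion genes were mixed, with 5 of 12 up (41.7%) and 4 down (33.3%). Cathepsin K (Ctsk) was 2.14-fold higher and Acp5 1.48-fold higher, and Dcstamp, the fusion receptor, was at 26.97 ± 10.7 and 32.8 ± 1.98 CPM (adjusted p = 0.483).

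Markers of other blood cells also moved with IL-33 in floxed cells. In bulk RNA, more cells of a type and more RNA of its genes per cell cannot be told apart. Over 12 monocyte genes the summed level was 432 to 445 CPM in the controls and 1068 to 1160.1 CPM with IL-33; 8 rose, led by Vcan (versican, 24.5-fold) and Hp, but the defining Ly6c2 was at 4.48 ± 0.145 and 5.56 ± 0.978 CPM and did not pass the test (adjusted p = 0.246). Over the 14 of 15 neutrophil genes tested the sum was 178 to 201 CPM and 471 to 551 CPM. A large part of the sum with IL-33 was Mmp8, whose level is given above. Of the 14 tested 10 rose, among them Mmp8, Lcn2, Elane (3.34-fold, to 4.37 ± 1.22 CPM) and S100a8 (1.97-fold, to 18.2 ± 3.34 CPM), and Retnlg fell. Ly6g had 0 counts in the controls and 4 with IL-33. Retnlg was not called in 4 of the 6 leave-one-out fits (adjusted p of 0.0511 to 0.0906). The 4 of 8 megakaryocyte genes tested summed to 216 to 261 CPM and 321 to 358 CPM. Most of the control sum was Vwf, which did not rise: it averaged 210 CPM in the controls and 187 CPM with IL-33 (log2 change -0.17, not called). Pf4 rose 6.48-fold to 142 ± 16.8 CPM, while Itga2b did not pass the test (adjusted p = 0.261).

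The 6 of 9 B cell markers tested summed to 178 to 206 CPM in the controls and 61.6 to 80.01 CPM with IL-33. Of these 6, 1 passed the test, the immunoglobulin gene Ighm, which fell 2.89-fold. That share of 16.7% is near the 16.3% of all genes tested that fell. Dendritic cell markers summed to 329.9 to 351 CPM and 461 to 504 CPM. Of 12 tested, 3 rose (25%, against 17.1% of all genes tested), 1 fell and 8 were not called. The rises were those of Itgax (CD11c, 1.82-fold), Batf3 (2.52-fold) and Ccr7 (2.63-fold). The defining Flt3, Zbtb46 and Xcr1 averaged at most 1.61 CPM. The other lists were low in every floxed library, over the members tested. Eosinophil genes (4 of 7 tested) summed to at most 25.2 CPM and stromal genes (6 of 10) to at most 5.41 CPM. NK cell genes (3 of 8) summed to at most 2.31 CPM, and the 1 of 9 erythroid genes tested was at most at 0.304 CPM. Of 14 macrophage genes 6 rose (42.9%) and 3 fell (21.4%), against 17.1% and 16.3% of all genes tested. Their median log2 change was 0.11. Fcgr1 rose 2.30-fold and Itgam 2.02-fold, and Trem2 fell 1.57-fold. The part of other cells in the chemokine, protease and acute-phase genes above was not tested.

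Wild-type cells, compared in the same fit with their own 3 controls, had 2676 genes called higher with IL-33 (18.5%) and 2446 lower (16.9%). No library is shared between the responses of the 2 genotypes. Of the 501 genes that rose at least 2-fold in floxed cells, 388 did so in wild-type cells, 77.4% of the floxed list and 64.0% of the 606 in the wild-type list. For falls of at least 2-fold the shared 219 were 52.6% of 416 and 59.7% of 367. Few genes were called in opposite directions: 9 rose in floxed and fell in wild-type cells, and 8 did the reverse.

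A test of the difference between the responses (the interaction of genotype and cytokine) called 176 genes, 1.22% of those tested: 78 with a higher response in floxed cells (0.539%) and 98 with a lower one (0.677%). Without adjustment 1973 genes had a p under 0.05. At a difference of at least 2-fold 4 genes were higher and 20 lower. Of the 98 lower, 40 rose in both genotypes and less in floxed cells, and 25 rose only in wild-type cells by the test within each genotype. Of the 78 higher, 28 fell in wild-type cells and were not called in floxed cells. The number of calls is sensitive to single libraries: it ranged from 53, without wild-type IL-33 replicate 2 or without floxed IL-33 replicate 3, to 266, without wild-type IL-33 replicate 1. It moved by over 1.5 times in 10 of the 12 fits that left out 1 library, and was 87, 76 and 102 without floxed control replicates 1, 2 and 3, 78 without floxed IL-33 replicate 1, 58 and 67 without wild-type control replicates 1 and 3, and 107 without wild-type IL-33 replicate 3. In all 12 of these fits 45 genes were called, 14 higher and 31 lower.

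**Figure D4:**
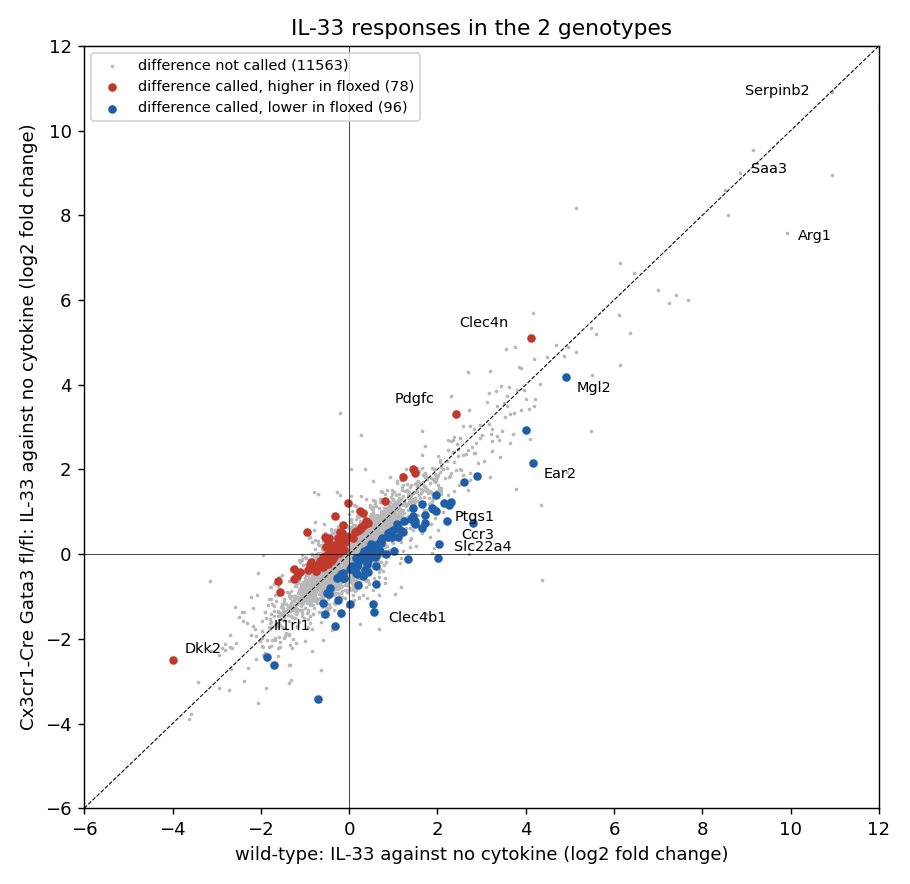
Log2 fold change of IL-33 against no cytokine in Cx3cr1-Cre Gata3 fl/fl cells (vertical) against wild-type cells (horizontal), for the 11737 genes with an average log2 CPM of at least 0. Coloured points are genes whose responses differed at an adjusted p of 0.05, 78 higher (red) and 96 lower (blue) in floxed cells; the dashed line marks equal responses. Most genes lie near the line, and Arg1 lies below it without a call.

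The IL-33 receptor gene was among the stable differences. Il1rl1 was at 14.6, 17.3 and 15.1 CPM in wild-type cells with no cytokine and at 15.8, 16.9 and 14.6 CPM with IL-33, overlapping groups, while the floxed IL-33 libraries given above lay below all of these. The difference of the responses was -1.19 ± 0.21 on the log2 scale (SE, adjusted p = 0.00405), and it was called in all 12 fits that left out 1 library. The other genes followed in every comparison were not called: Arg1 went from 0.381 ± 0.126 to 373 ± 60.3 CPM in wild-type cells, a level with IL-33 above every floxed library, but the difference of the log2 responses was -2.34 ± 0.79 (adjusted p = 0.171). For Cx3cr1 it was -0.58 ± 0.16 (adjusted p = 0.0774), for Ucp2 -0.09 ± 0.06, for Chil3 -0.06 ± 0.16, for Irg1 0.18 ± 0.41, for Retnla -1.38 ± 2.07 and for Gata3 0.14 ± 0.99, with adjusted p of 0.509 or more for these 5. The calls of 2 of these genes depend on the setting. The Cx3cr1 difference was called with DESeq2 (adjusted p = 0.0155), with limma-voom (0.0422), without the expression filter (9.52e-06) and without floxed IL-33 replicate 1 (-0.75, adjusted p = 0.0146), and the Arg1 difference with DESeq2 (0.0496) and without the filter (1.39e-07).

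Among the alternative-activation genes, 4 of 27 had a lower response in floxed cells: Mgl2, Ear2, Slc7a2 and Tmem26. None had a higher one. Over all genes tested the shares were 0.677% lower and 0.539% higher. The list was chosen with earlier results of these data known. Mgl2 reached 319.7, 271 and 247 CPM in wild-type cells with IL-33, above all 3 floxed IL-33 libraries, from a like base (difference -0.73 ± 0.18, adjusted p = 0.0487). Slc7a2 reached 43.4 ± 8.12 CPM in wild-type and 28.6 ± 5.65 CPM in floxed cells (difference -1.08 ± 0.24, adjusted p = 0.0315). Tmem26, a membrane protein gene, rose 6.94-fold in wild-type and 1.68-fold in floxed cells, from unequal bases of 0.228 and 0.737 CPM. Ear2, an eosinophil-type ribonuclease gene with near-identical relatives, rose 17.98-fold in wild-type and 4.41-fold in floxed cells. Its bases were low and unequal too, at 0.1465 and 0.5698 CPM, and its levels with IL-33 were alike, at 2.715 and 2.602 CPM. Tmem26 was called in all 12 leave-one-out fits, Slc7a2 in 6, Ear2 in 3 and Mgl2 in 2.

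Gatm, the enzyme of the first step of creatine synthesis from arginine, rose 2.01-fold in wild-type cells, from 56.3, 60.4 and 54.9 to 109, 121 and 115 CPM, and was at 69.04, 67.9 and 66.96 and 69.9, 80.4 and 65.2 CPM in floxed cells. The floxed groups overlap, and the difference was -0.93 ± 0.09 (adjusted p = 3.01e-05), called in all 12 leave-one-out fits. Ptgs1 rose 4.43-fold in wild-type cells (to 80.1, 88.02 and 93.7 CPM) and 2.30-fold in floxed cells (difference -0.94 ± 0.11, adjusted p = 6.74e-05). Tfrc rose 3.91-fold and 2.04-fold (difference -0.94 ± 0.12, adjusted p = 1.35e-04), and Hfe, whose product binds the transferrin receptor, 2.17-fold and 1.32-fold (difference -0.72 ± 0.09). Igf1 rose in both and less in floxed cells (2.71-fold and 2.13-fold, difference -0.35 ± 0.06). Ccr3, the eotaxin receptor, reached 15.3, 16.2 and 17.4 CPM in wild-type cells and 5.79, 5.90 and 5.23 CPM in floxed cells, with like controls (difference -1.43 ± 0.22, adjusted p = 0.00123).

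**Figure D5:**
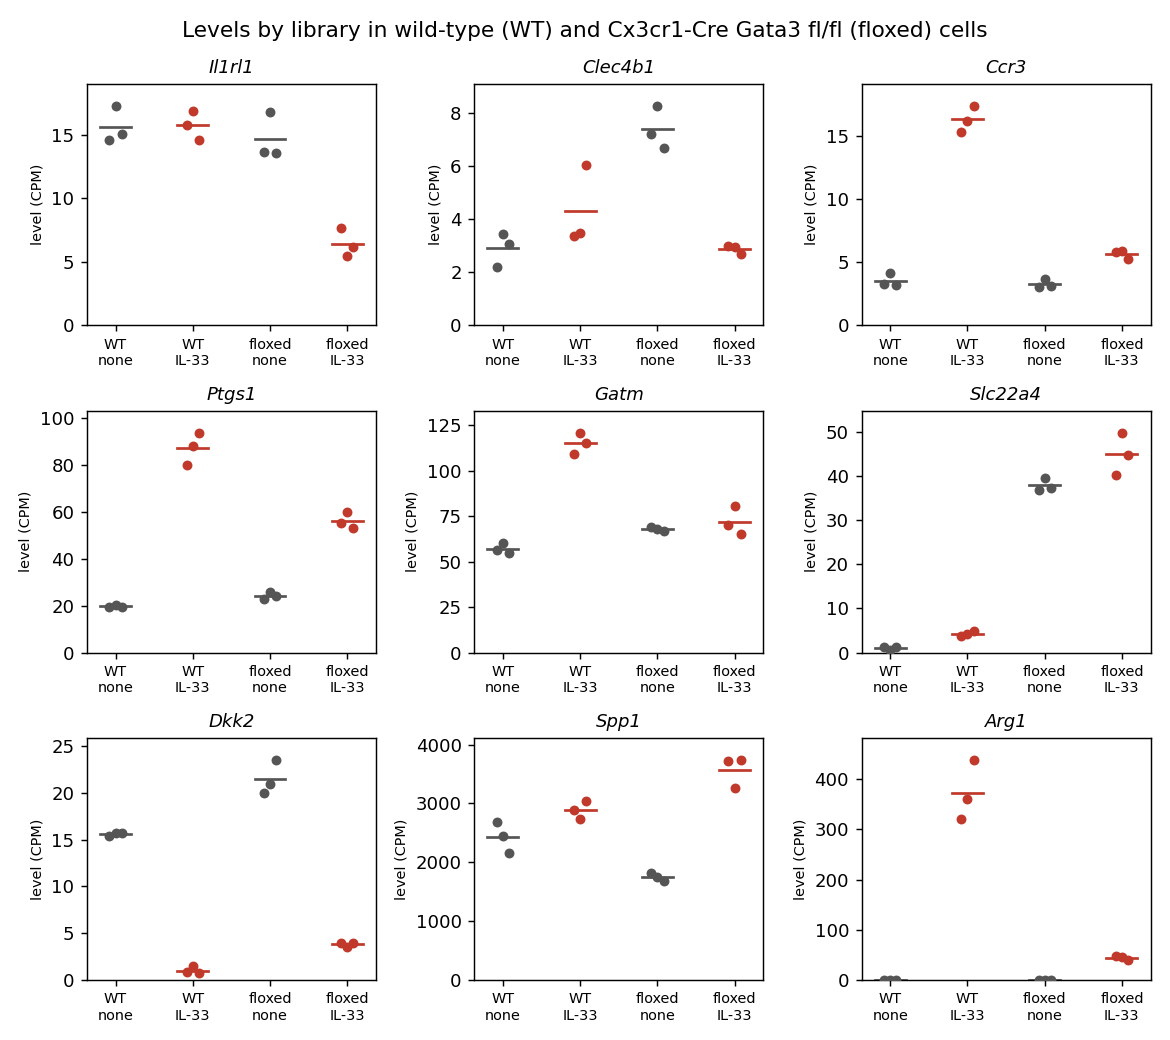
Levels (CPM, axes from 0) of 9 genes in the 12 libraries of wild-type (WT) and Cx3cr1-Cre Gata3 fl/fl (floxed) cells with no cytokine (grey) or IL-33 (red), with 1 point per library and a line at each mean. Il1rl1 is lower with IL-33 in floxed cells alone, Gatm is higher with IL-33 in wild-type cells alone, and Spp1 is about 2-fold higher with IL-33 in floxed cells; the difference for Arg1 was not called.

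Among genes with an average log2 CPM of at least 2, and where the genotypes' libraries of a condition do not overlap, other large lower responses were those of St8sia1, Clec4b1, Slc22a4, Itga9, Snn and Tspyl4, with differences of -2.10 ± 0.44, -1.91 ± 0.30, -1.79 ± 0.29, -1.71 ± 0.40, -1.44 ± 0.27 and -1.21 ± 0.27 in that order on the log2 scale. Clec4b1, a C-type lectin gene, went in opposite directions: it fell from 7.21, 8.27 and 6.68 to 2.99, 2.97 and 2.69 CPM in floxed cells and rose from 2.19, 3.42 and 3.08 to 3.36, 3.49 and 6.02 CPM in wild-type cells. Slc22a4, an ergothioneine transporter, stood apart by its base: 36.8, 39.5 and 37.2 CPM in floxed controls against 1.23, 0.7005 and 1.18 CPM in wild-type controls. It rose 4.11-fold in wild-type cells, and the floxed change to 40.1, 49.7 and 44.8 CPM did not pass the test (adjusted p = 0.255). That change was called with limma-voom (log2 change 0.24, adjusted p = 0.0212) and in a fit of the compared libraries alone (0.25, adjusted p = 0.0261). St8sia1 was low in this comparison, at 0.4446 and 0.4262 CPM in floxed cells with no cytokine and IL-33. In wild-type cells it was at 0.4496 and 1.842 CPM. Its average level passed the rule because it was set over all 21 libraries. Of these 6 genes, St8sia1 was called in 5, Tspyl4 in 4 and Itga9 in 3 of the 12 leave-one-out fits, and the others in all 12.

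By the same rule the largest higher responses in floxed cells were those of Slc5a3, Dkk2, Gdf15, Tusc1, Clec4n, Mrps6, Pdgfc, Il17ra, Gnas and Lsr. Dkk2 fell in both genotypes and further in wild-type cells, from 15.4, 15.7 and 15.7 to 0.793, 1.45 and 0.676 CPM (difference 1.48 ± 0.25, adjusted p = 0.00284). Clec4n rose in both and further in floxed cells (difference 0.98 ± 0.22), as did Pdgfc (difference 0.90 ± 0.21). Gdf15, a stress-induced cytokine, rose in floxed cells from 25.2, 21.7 and 21.3 to 49.4, 29.3 and 48.9 CPM and was at 20.5 ± 1.79 and 16.4 ± 6.98 CPM in wild-type cells (difference 1.22 ± 0.29). Spp1, encoding osteopontin, rose 2.04-fold in floxed cells (1822, 1745 and 1688 to 3719, 3263 and 3739 CPM) and 1.19-fold in wild-type cells (2683, 2446 and 2151 to 2882, 2727 and 3036 CPM), a difference of 0.78 ± 0.13 (adjusted p = 0.00284) that was called in all 12 leave-one-out fits. Slc5a3 and Mrps6 overlap on chromosome 16 and share exon bases, so their values (1.50 ± 0.33 and 0.96 ± 0.22) are not independent, and 44.7% of Lsr's exon bases and 37.8% of Tspyl4's overlap antisense genes. Of the 12 leave-one-out fits Mrps6 was called in 5, Slc5a3, Clec4n, Pdgfc, Il17ra and Lsr in 4, Gdf15 and Gnas in 3, and Dkk2 and Tusc1 in 12. Without genes of chromosomes X and Y 171 differences were called.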

How the data were processed

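Bulk RNA was measured in 21 libraries, 7 groups of 3, of which 6 are the floxed libraries and 6 the wild-type libraries set beside them. Per the labels' protocols, RNA was made into libraries with the NEBNext Ultra kit from 1 ug of input and sequenced as 150-base pairs on a NovaSeq 6000. The authors deposited raw counts of reads per gene; GRCm38 (mm10) and the tools HISAT2 2.0.5, HTSeq 0.6.1 and DESeq2 1.22.2 are listed in the submitters' processing notes, while the gene annotation, the strand setting and the handling of multimapping reads are not given in the sources used here. Reads of paralogs and overlapping genes may therefore be split, lost or shared. No library was filtered out, no 2 libraries were identical, and the counts were used as deposited. Totals of 32626469 to 48743646 counts per library set the precision; intervals and floors (3 counts per library; 95% confidence) cover counting error only.

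Groups were taken from the labels. Genes were kept by edgeR's filterByExpr (14473 of 47069), scaled with TMM factors and tested with edgeR's quasi-likelihood test (edgeR 4.0.16, R 4.3.3) in 1 fit of all 21 libraries with a mean per group. P-values are two-sided and Benjamini-Hochberg adjusted over all 14473 genes, and "called" means an adjusted p under 0.05. The contrasts were IL-33 against no cytokine in floxed cells, the same in wild-type cells, and the difference of the 2. CPM levels are counts scaled to 1 common TMM-adjusted library total, not per length, so levels are not compared between genes. The code was tested on simulated data before use. Gene models and coordinates came from GENCODE M21 (GRCm38), which held 46574 of the gene identifiers and lacked 495; promoter sequences came from RefSeq (GRCm38.p6).

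The text names the genes targeted or followed throughout (Il1rl1, Gata3, Cx3cr1, Il33, Arg1, Chil3, Retnla, Irg1, Ucp2, Xist and Ddx3y), the 15 largest rises and falls among called protein-coding genes with an average log2 CPM of at least 2 and no overlap between groups, the 10 largest differences in each direction among called genes at that level where the genotypes' IL-33 or control libraries do not overlap, and for each gene list up to 4 called members with the largest change and its first 3 members; a few genes that meet these rules are not reported here. Named after their values were seen were Adam19, Ccl6, Ccl7, Ccl9, Cd163, Clec7a, Eno2, Fth1, Gatm, Hfe, Hpgd, Igf1, Il1rn, Il4ra, Matk, Mgl2, Mmp12, Mrc1, Pfkm, Pparg, Ptges, Ptgs1, Ptgs2, Slc40a1, Slc7a2, Spp1 and Tfrc. The comparison and the 38 gene lists were chosen with earlier results of these data known, so the lists are described by counts and medians and not tested. Alternatives were RLE size factors, upper-quartile factors, no expression filter, a filter of at least 1 CPM in 3 libraries, DESeq2 1.42.0, limma-voom (limma 3.58.1), a replicate block, only the libraries of the groups compared, leaving out each library in turn and, for the difference, leaving out genes of chromosomes X and Y.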

Additional observations from a re-analysis of the deposited data

Results flagged for a closer look

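The IL-33 response differed between floxed and wild-type cells for 176 genes by the test of the difference itself, and the genes of that set that are named above are given here with the difference on the log2 scale (floxed minus wild-type response). Groups of 3 libraries are too small for the check for single libraries far from their group, which was not run. In the IL-33 receptor and alternative-activation genes the differences were -1.19 for Il1rl1, -0.73 for Mgl2, -2.03 for Ear2, -1.08 for Slc7a2 and -2.05 for Tmem26. In genes of creatine, prostaglandin and iron metabolism and growth they were -0.93 for Gatm, -0.94 for Ptgs1, -0.94 for Tfrc, -0.72 for Hfe and -0.35 for Igf1. In the remaining genes with a lower response they were -1.43 for Ccr3, -2.10 for St8sia1, -1.91 for Clec4b1, -1.79 for Slc22a4, -1.71 for Itga9, -1.44 for Snn and -1.21 for Tspyl4. The higher responses were 1.50 for Slc5a3, 1.48 for Dkk2, 1.22 for Gdf15, 0.99 for Tusc1, 0.98 for Clec4n, 0.96 for Mrps6, 0.90 for Pdgfc, 0.88 for Il17ra, 0.82 for Gnas, 0.81 for Lsr and 0.78 for Spp1. The floxed and wild-type libraries also differ in sex, and genotype and sex cannot be told apart for any of them.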

How the results depend on the processing

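The counts of genes called in the IL-33 response of floxed cells stayed within 1.5 times of the reported ones under all alternatives run. With 1 floxed library left out, 4090 to 4528 genes were called, 2170 to 2443 higher and 1854 to 2085 lower. For 187 genes named in the text, 2545 of 2609 values kept their direction and side of the threshold, 53 lost the call, 10 gained it and 1 changed sign without a call: Il1rap, at -0.19 to 0.016 with 1 library left out, the latter without floxed IL-33 replicate 3. In the response, Retnla, Ifit1, Dcstamp, Ddit3 and Top2a gained the call without a filter, and Cpt1a, Mcpt8 and Pfkm lost it. With DESeq2 the call was lost for Adam19, Csf3, Il5 and Mki67.

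The difference of the responses moved more. Without an expression filter 555 genes were called (229 higher, 326 lower; 28 and 61 at 2-fold or more), and with DESeq2 393 (210 and 183; 15 and 32), against 176 by edgeR's quasi-likelihood test. Leaving out 1 library gave 53 to 266 calls, 16 to 122 higher and 33 to 144 lower, and at 2-fold or more 1 to 18 higher and 6 to 33 lower. Differences without a call that changed sign with 1 library left out were those of Chil3 (-0.15 to 0.026), Irg1 (-0.081 to 0.37), Retnla (-2.21 to 2.05) and Gata3 (-0.29 to 0.85). Arg1 and Cx3cr1, not called in the reported fit, were called with DESeq2 and without a filter, and Cx3cr1 also with limma-voom. With limma-voom Mgl2, Ear2, Slc7a2, St8sia1, Itga9, Clec4n, Pdgfc and Gnas were not called, with RLE factors Mgl2 was not (adjusted p = 0.0516), and with the compared libraries alone Ear2, St8sia1, Tspyl4 and Gdf15 were not (0.0973, 0.0843, 0.0594 and 0.0759). The cause of these changes was not tested.

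With a replicate block 5053 genes were called in the floxed response and 355 in the difference (182 higher, 173 lower; 13 and 31 at 2-fold or more). The block also gave the Cx3cr1 difference (adjusted p = 0.0314) and the Ddit3 response (0.0498) a call, and 7 falls in place of 2 among interferon-stimulated genes. Same-numbered floxed libraries deviated together little (correlations of 0.00451, 0.0567 and 0.024). Control 1 correlated best with IL-33 replicate 3 (0.035), while controls 2 and 3 correlated best with the IL-33 replicates of the same number. Values this small do not decide whether the numbers pair the libraries. Genes with few counts in the controls limit the precision of the largest folds.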
